A study of Mus musculus with 20 samples.

Results

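The response to nerve transection was measured in the lumbar dorsal root ganglia (DRG, which hold the cell bodies of the sensory neurons) of mice with a conditional knockout (cKO) of Ahr, which encodes the aryl hydrocarbon receptor. The libraries were chosen by name: the 10 libraries of the cKO mice with a 1 day lesion, 5 from ipsilateral and 5 from contralateral ganglia, of 20 libraries in all. Each of 5 mice, numbered H61, H64, H95, H99 and H100 in the labels, gave 1 library per side. For the contralateral H61 library the title reads H6, and the library name was used. The cKO mice were males with both Ahr alleles floxed and a Thy1CRE-ERT2/EYFP transgene, in which the Thy1 promoter, active in neurons, drives a Cre recombinase that tamoxifen switches on. The other 10 libraries came from 5 male control mice with 1 or both Ahr alleles floxed, lesioned and sampled in the same way. Their titles read Wildtype, against CRE genotype in the cKO mice, and their library names hold ff where the cKO names hold ffcre. The labels say no more on whether these mice carry the Cre transgene. Control libraries share 1 estimate of spread with the cKO libraries in the test of every gene, and the cKO response was also compared with theirs. All mice of both genotypes received tamoxifen at 100 mg/kg daily on 5 days from 17 weeks of age. The sciatic nerve was cut 4 weeks after tamoxifen, per the protocol text, and the L4 to L6 ganglia were removed after 1 day, at hours 2 to 4 after lights on. Another label speaks of a spinal cord injury; the protocol text was followed. The contralateral ganglia came from lesioned animals, so they are an internal reference and not ganglia of uninjured mice.

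When the axon of a sensory neuron is cut, retrograde signals through stress kinases, JAK-STAT and calcium reach the nucleus. The neuron then turns on transcription factors such as Atf3, Jun and Sox11 and a programme of growth, cytoskeletal and neuropeptide genes, while transcripts of its mature state, among them ion channels, decline. The aryl hydrocarbon receptor is a ligand-activated transcription factor that pairs with Arnt, binds DNA with the core GCGTG and turns on enzymes such as Cyp1a1 and Cyp1b1. The title of the series names it as a restraint on axon regrowth. The comparison of sides shows what the injury programme looks like in mice with both Ahr alleles floxed and the Thy1-driven Cre.

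The cKO libraries held 76.2 to 87.2 M counts (M, mega) on the contralateral side and 87.5 to 118.5 M on the ipsilateral side, and the ipsilateral library was the deeper one in 5 of 5 mice. Mitochondrial genes took 1.10% to 1.33% of contralateral and 0.985% to 1.08% of ipsilateral counts, without overlap. In a principal component analysis of the 10 libraries, 36.0% of the variance lay on the first component, on which the sides did not overlap. The second component (18.9%) ranged from 63.9 in the contralateral library of H99 to -40.0 in that of H100. That H100 library held 2147 CPM (counts of a gene per M counts of its library, scaled by TMM factors) summed over 10 skeletal muscle genes, against 8.12 to 82.9 CPM in the other contralateral libraries. The contralateral library of H95 stood apart for cartilage and bone genes such as Col2a1, as given below with the genes that fell. Calls of genes named here that were lost without both mice are marked where they are given, apart from those of Calca, Ccl2, Dpysl3, Fgf21, Map3k12, Per3, S100b and Trpm8, which were lost too.

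Of 28564 genes tested, 8939 were called (31.3%) at an adjusted p under 0.05 by the quasi-likelihood test of edgeR, 4632 of them higher (16.2%) and 4307 lower (15.1%) on the lesioned side. Without H95 and H100, 5975 genes were called, 5713 of them among the 8939. The main test shares 1 spread over all groups, but the cKO contralateral libraries varied more than the others. Their median SD of log2 CPM between mice was 0.0926, against 0.0607 to 0.0634 in the other groups. The SE and adjusted p of the main test may therefore be too small for this comparison. In a fit of only the 10 cKO libraries 7144 were called, 4328 higher and 2816 lower, and with the mice paired in that fit 4258 and 2803. Most changes were small: 724 called genes rose at least 2-fold (2.53% of all tested) and 163 fell at least 2-fold (0.571%; 93 in either fit of only cKO libraries). Large changes went almost entirely upward, with 254 genes at 4-fold or more higher against 11 lower, and 78 against 0 at 16-fold or more. Many of these genes were at low levels. Among 14115 genes with at least 5 CPM in the higher group, 42 rose and 2 fell 4-fold or more. Of these 14115 genes, 18 rose 8-fold or more (144 over all tested genes) and none fell so far, and 9 rose 16-fold or more. The ipsilateral range lay wholly above the contralateral range in 3395 genes (11.9%) and wholly below it in 2377 (8.32%).

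**Figure D1:**
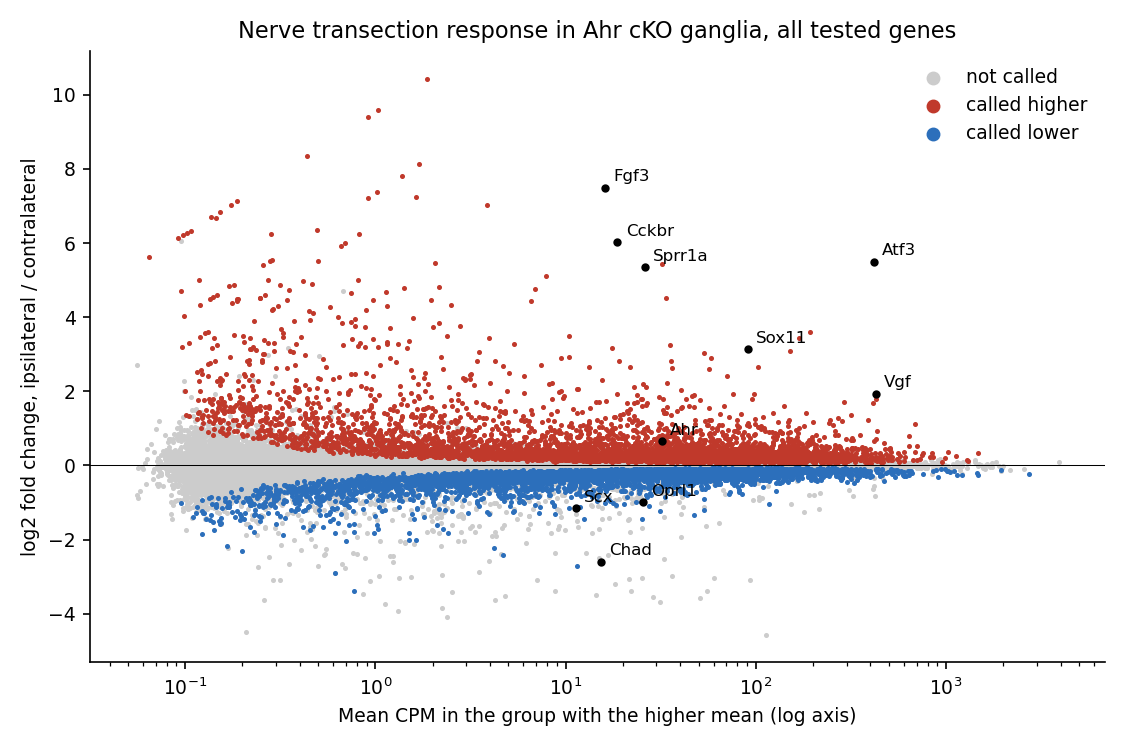
Log2 fold change of ipsilateral over contralateral ganglia (vertical axis) against the mean CPM of the side with the higher mean (horizontal log axis), 1 point per tested gene, from 5 cKO mice. Genes called higher are red, genes called lower blue and others grey, and genes described in the text are marked in black. The points reach further above 0 than below it, with 254 called genes at 4-fold or more higher and 11 lower.

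Mice differed somewhat in the size of the response. The same sign appeared in 5 of 5 mice for 4188 of the 4632 genes called higher (90.4%) and for 3633 of the 4307 called lower (84.4%). Over the genes that rose at least 2-fold, the median response of a mouse (log2 CPM, ipsilateral minus contralateral) was 1.58 in H61, 1.74 in H64, 1.58 in H95, 1.45 in H99 and 1.53 in H100. Over the genes that fell at least 2-fold it was -0.96, -1.17, -1.39, -0.94 and -1.12 in the same order. These counts and medians describe genes called on the same 10 libraries, a choice that favours equal signs. H64 had the highest median among the risen genes and H99 the smallest in both directions.

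Ahr (ENSMUSG00000019256.18), the targeted gene, rose with injury in the cKO ganglia. In the order H61, H64, H95, H99 and H100, used for all values per mouse, it had 20.4, 21, 20.5, 20.4 and 19.5 CPM contralaterally and 31.5, 36.8, 31.5, 30.9 and 28.9 CPM ipsilaterally. The sides did not overlap, and the log2 fold change was 0.65 (SE 0.0661, adjusted p 1.45e-07 in edgeR's quasi-likelihood test with Benjamini-Hochberg adjustment). H64 had the largest rise (0.81), above the 0.57 to 0.62 of the other mice. In control mice Ahr had 24.2 ± 2.10 CPM contralaterally and 34.4 ± 2.86 ipsilaterally (SD, n = 5). Ahr was not called between genotypes on either side (log2 fold change -0.25, adjusted p 0.103, contralaterally and -0.11 ipsilaterally), in comparisons that called 21 genes (0.0735%) and 2 genes (0.007%). Counts cover every exon and every cell of the ganglion, so transcripts from cells without Cre, and transcripts that lack only the floxed exon, are included.

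Genes of the receptor's pathway were called in both directions. Of 7 genes of the receptor and its partners, 4 rose (57.1%) and 1 fell (14.3%), against 16.2% higher and 15.1% lower over all genes (median log2 fold change 0.12, against -0.03 over all tested genes). Arnt2, a neuronal partner of the receptor's class, rose from 76.2 ± 3.47 to 95.5 ± 4.85 CPM (0.32, n = 5 per side) and Arnt rose by 0.18. Of 9 target genes tested (Cyp1a2 was filtered out), 2 rose (22.2%, against 16.2% over all genes) and 3 fell (33.3%, against 15.1%; 1 gene in the fit of only cKO libraries). Their median was -0.05 and had no stable sign (-0.17 with the mouse as a block, 0.12 without H61). Cyp1b1, a monooxygenase induced by the receptor, had 54.4, 69.5, 73.2, 49.5 and 72.1 CPM contralaterally and 91.0, 98.6, 87.0, 85.6 and 95.9 CPM ipsilaterally. Its sides did not overlap (0.52, SE 0.0850, adjusted p 8.24e-05), and Tiparp, which encodes a feedback inhibitor of the receptor, rose by 0.21. Ahrr, the receptor's repressor, fell by 0.27, a call lost without H95 and H100. Nqo1 fell by 0.17 and Aldh3a1, at 1.81 ± 1.11 CPM contralaterally, by 1.40; both calls were lost without H64, without H95 and without H95 and H100 together, and that of Nqo1 also with the mice paired in only cKO libraries (adjusted p 0.0677). Cyp1a1, the classic target, had 0.315 ± 0.0845 and 0.198 ± 0.0958 CPM (n = 5) and was not called.

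Of 25 transcription factors of the injury programme 20 were called higher (80%, against 16.2% over all genes) and none lower, with a median log2 fold change of 0.60. The 5 others were not called, the lowest of them at -0.74. Atf3 (ENSMUSG00000026628.14), a stress-induced leucine zipper factor and the standard marker of axotomised neurons, had 8.46, 9.84, 9.51, 8.67 and 9.71 CPM contralaterally and 434, 462, 439, 380 and 370 CPM ipsilaterally. This is a 45.1-fold rise (log2 fold change 5.5, SE 0.0991, adjusted p 1.78e-18), and its rise was similar in all mice, from 5.25 to 5.68. Sox11, a factor of developing neurons, had 10.7, 9.0, 10.6, 11.1 and 10.4 CPM contralaterally and 86.4, 107, 94.3, 82.6 and 81.8 CPM ipsilaterally (3.13, SE 0.0725, adjusted p 1.76e-17). Jun, the partner of Fos and Atf3 family proteins in the AP-1 complex, started higher and rose less, from 89.2 ± 3.67 to 291 ± 13.8 CPM (1.70, n = 5 per side). Nfil3, a repressor of CREB target genes, rose by 1.89, Fosl2 by 1.21 and Cebpd by 1.11. The Krüppel-like factors Klf6, Klf7 and Klf9 rose by 1.06, 0.46 and 0.25. Stat3, which carries cytokine signals to the nucleus, rose from 371 ± 25.5 to 510 ± 21.6 CPM (0.46). For Sox11, Jun, Nfil3, Fosl2, Klf6 and Stat3 as for Atf3, the ipsilateral range lay above the contralateral range.

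The 14 highest fold changes, among called genes with a symbol of an established gene, at least 5 CPM in the higher group and the same sign in 5 of 5 mice, held secreted factors, receptors and membrane proteins beside Atf3 and Sox11. Fgf3 (ENSMUSG00000031074.15), a secreted fibroblast growth factor, had 0.0909, 0.0761, 0.0222, 0.133 and 0.124 CPM contralaterally and 17.8, 19.1, 16.7, 13.1 and 14.2 CPM ipsilaterally (7.5, SE 0.269, adjusted p 1.52e-13). It was close to absent on the contralateral side and present in every lesioned ganglion sample. Cckbr, a receptor of cholecystokinin and gastrin peptides, rose from 0.288 ± 0.109 to 18.7 ± 3.18 CPM (6.02, SE 0.253). Gpr151, an orphan receptor of sensory and habenular neurons, rose from 1.49 ± 0.316 to 33.8 ± 6.39 CPM (4.51, SE 0.154). Areg, a ligand of the epidermal growth factor receptor, rose from 0.301 ± 0.0701 to 6.54 ± 0.954 CPM (4.43, SE 0.173). Tmem88b, a membrane protein, rose from 0.744 ± 0.0937 to 32.2 ± 4.91 CPM (5.43, SE 0.146), and Slc6a4, the serotonin transporter, from 0.551 ± 0.238 to 5.33 ± 1.12 CPM (3.27, SE 0.308). All 14 genes kept their call under every alternative tried and had no overlap between the sides.

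**Figure D2:**
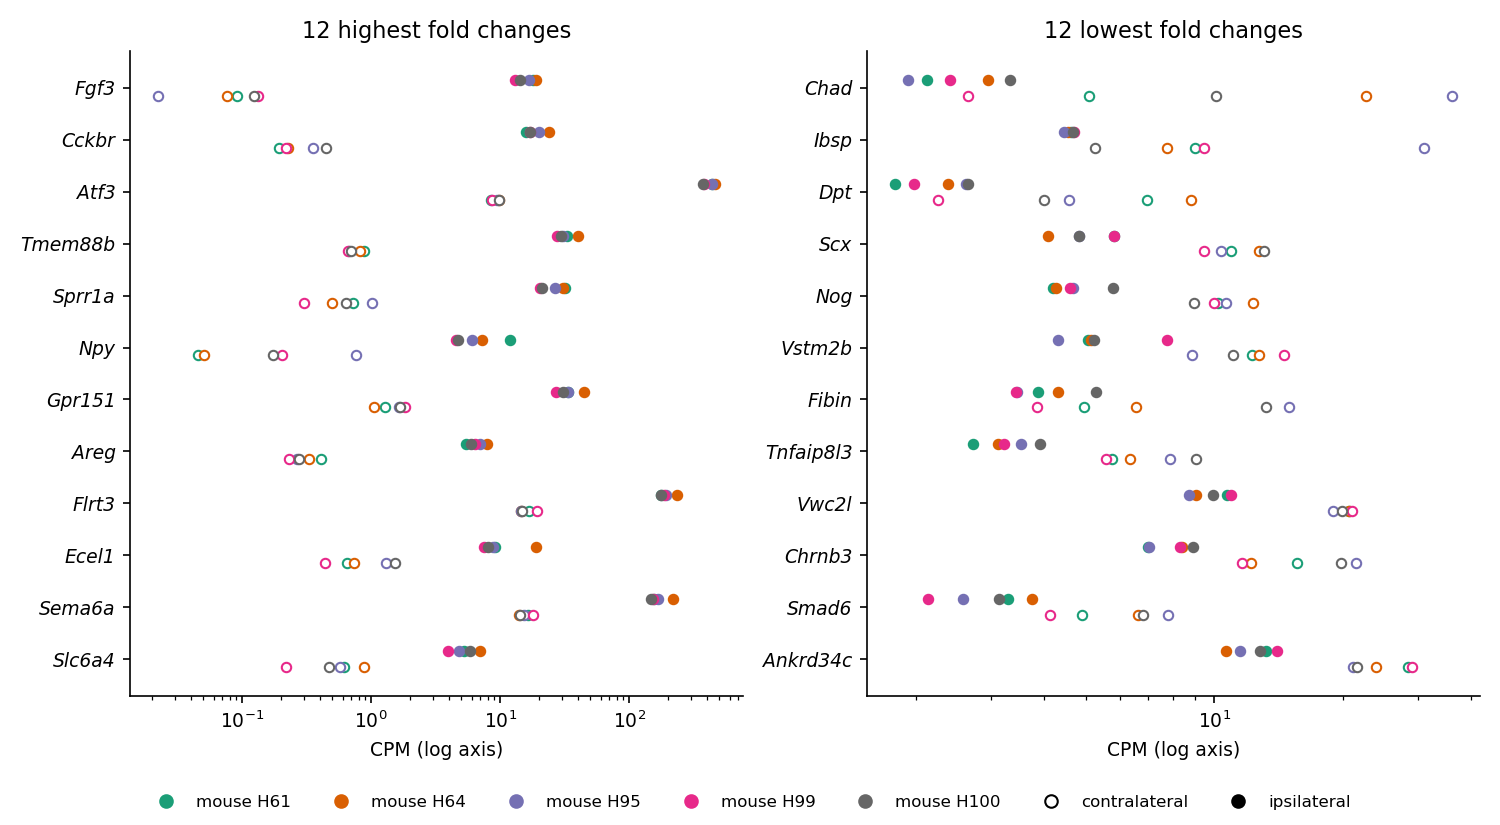
CPM on a log axis in each cKO library for the 12 highest (left) and 12 lowest (right) fold changes, with open points for contralateral and filled points for ipsilateral ganglia and 1 colour per mouse. The open and filled points are apart for all 12 genes on the left, from Fgf3 at the top to Slc6a4. On the right Chad, Dpt and Fibin overlap, with their highest contralateral values in H95 or H64.

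The promoters of 4 of these genes are shown because they hold short motifs of factors that rose themselves or of the targeted receptor. The sequences are the 250 bases before the RefSeq transcription start in GRCm38.p6, read 5′ to 3′ on the gene's strand, and capitals mark the motif named. TGANTCA is bound by AP-1 dimers of Jun and Fos proteins, TGACGTCA by ATF and CREB proteins, and GCGTG (searched on both strands, so also as CACGC) is the core that the receptor and Arnt bind; the first 2 read alike on both strands, and none of the motifs contains another.
Atf3 (chr1:191183334-191183583, minus strand, GCGTG in capitals): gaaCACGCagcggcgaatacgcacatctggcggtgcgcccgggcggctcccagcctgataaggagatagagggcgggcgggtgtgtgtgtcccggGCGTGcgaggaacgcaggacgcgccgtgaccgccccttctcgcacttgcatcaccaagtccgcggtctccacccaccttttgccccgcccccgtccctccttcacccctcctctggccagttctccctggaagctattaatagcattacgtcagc
Sprr1a (chr3:92485882-92486131, minus strand, TGANTCA in capitals): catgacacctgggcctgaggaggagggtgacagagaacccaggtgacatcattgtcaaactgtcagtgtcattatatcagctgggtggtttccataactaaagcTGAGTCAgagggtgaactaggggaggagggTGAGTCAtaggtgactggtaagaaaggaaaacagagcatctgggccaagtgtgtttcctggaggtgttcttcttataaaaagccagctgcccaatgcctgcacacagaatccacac
Areg (chr5:91139349-91139598, plus strand, TGACGTCA in capitals): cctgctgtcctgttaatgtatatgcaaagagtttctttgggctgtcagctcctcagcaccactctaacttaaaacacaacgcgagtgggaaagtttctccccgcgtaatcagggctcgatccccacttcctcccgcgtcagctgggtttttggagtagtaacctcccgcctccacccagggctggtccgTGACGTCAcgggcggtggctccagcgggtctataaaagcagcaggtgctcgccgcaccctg
Tmem88b (chr4:155785875-155786124, minus strand, TGANTCA in capitals): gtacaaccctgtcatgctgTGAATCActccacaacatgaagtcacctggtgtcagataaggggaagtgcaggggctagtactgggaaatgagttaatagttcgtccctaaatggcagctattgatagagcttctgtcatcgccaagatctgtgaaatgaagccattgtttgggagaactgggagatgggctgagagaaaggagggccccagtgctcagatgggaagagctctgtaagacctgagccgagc
Sprr1a held TGAGTCA at 146 and 116 bases before the start, Areg held TGACGTCA at 61 bases, Tmem88b held TGAATCA at 231 bases, and Atf3 held the receptor core at 247 and 155 bases. Over the whole 300-base windows, which also include the first 50 transcribed bases, TGANTCA was in 2 of the 11 matched promoters of the 14 highest genes (18.2%, against 7.81% of 32851 mouse promoters). TGACGTCA was in 1 of 11 (9.09%, against 1.79%) and GCGTG in 5 of 11 (45.5%, against 32.4%): those of Atf3, Fgf3, Npy, Slc6a4 and Sox11. Of the 14 lowest genes 11 were matched, with 13 promoters between them. In these promoters TGANTCA and TGACGTCA were in 0 and GCGTG in 5 (38.5%). A match is only a description of the letters, and binding was not measured.

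Effectors of the axotomised state had the largest share called among the lists: 28 of 29 tested members were called higher (96.6%, against 16.2% over all genes), none was lower, 17 rose at least 2-fold, and the median was 1.59. Genes of this list are known from nerve injury, and Reg3b was not tested. Sprr1a, a small proline-rich protein that promotes axon growth, had 0.727, 0.494, 1.01, 0.302 and 0.633 CPM contralaterally and 31.8, 30.4, 26.5, 20.4 and 20.9 CPM ipsilaterally (5.35, SE 0.338, adjusted p 1.11e-09). Every ipsilateral value exceeded every contralateral one. Flrt3, an adhesion protein and guidance ligand, had 16.7, 14.4, 14.5, 19.2 and 14.8 CPM contralaterally and 175, 234, 193, 184 and 176 CPM ipsilaterally (3.59, SE 0.0907). Sema6a, a transmembrane semaphorin, rose from 15.6 ± 1.59 to 167 ± 28.3 CPM (3.43, n = 5 per side). Ecel1, an endopeptidase-like protein of damaged neurons, rose from 0.931 ± 0.467 to 10.5 ± 4.77 CPM (3.49). H64 was the highest ipsilateral library for Ecel1 (18.9 CPM, against 7.54 to 9.03) and for Sema6a (216 CPM, against 147 to 167). Gadd45a, a stress-induced growth arrest protein, rose from 17.8 ± 1.14 to 150 ± 11.8 CPM (3.08), and Plaur, the urokinase receptor, from 6.58 ± 0.917 to 53.5 ± 8.43 CPM (3.02).

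At the lower end of the same list stood the abundant growth cone proteins. Gap43, a membrane protein of growing axons, was already at 193 ± 13.4 CPM contralaterally and reached 236 ± 5.58 CPM (0.29, n = 5 per side), Basp1 rose by 0.24 and Dpysl3 by 0.16. Csf1, the colony-stimulating factor by which injured neurons call on macrophages and microglia, had 24.2, 24.7, 27.4, 21.1 and 29.8 CPM contralaterally and 96, 115, 96.9, 88.8 and 89.1 CPM ipsilaterally (1.93, SE 0.0904, adjusted p 3.19e-12). Its sides were well apart in every mouse. In the polyamine list 6 of 10 genes rose (60%, against 16.2% over all genes) and 1 fell; 4 rose without H61, without H95, and without H95 and H100. Odc1, the first enzyme of polyamine synthesis, rose from 74.5 ± 6.53 to 137 ± 7.49 CPM (0.88) and its activator Azin1 from 201 ± 6.77 to 354 ± 25.4 CPM (0.82). Tubulins and intermediate filaments had shares called not far from those over all genes (16.2% higher and 15.1% lower). Of 12 tubulins 3 rose (25.0%), led by Tubb6 (1.59), and 1 fell (8.33%), while of 6 intermediate filament genes Vim alone was called (0.35, 16.7%).

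Among neuropeptides 8 of 17 rose (47.1%) and 2 fell (11.8%), against 16.2% higher and 15.1% lower over all genes, with a median of 0.65. That median rested on members at low levels: it was 0.0048 over the 13 with a mean CPM of at least 1, of which 6 rose, and 0.42 in the fit of only cKO libraries. The 2 lower calls became 1 without H64 or H95 and 4 without H99. Adcyap1, the precursor of the peptide PACAP, had 121, 100, 161, 102 and 152 CPM contralaterally and 425, 440, 409, 383 and 407 CPM ipsilaterally (1.70, SE 0.106, adjusted p 3.85e-10). Vgf, a precursor of secreted peptides, had 116, 111, 114, 112 and 104 CPM contralaterally and 428, 460, 426, 381 and 440 CPM ipsilaterally (1.94, SE 0.0573). Both had no overlap between the sides. Gal, the galanin precursor, rose from 19.4 ± 7.39 to 57.0 ± 6.92 CPM (1.55) and Nts, the neurotensin precursor, from 8.98 ± 1.52 to 18.2 ± 4.67 CPM (1.02). Npy, the neuropeptide Y precursor, had 0.0455, 0.0507, 0.755, 0.205 and 0.174 CPM contralaterally and 11.8, 7.23, 6.03, 4.57 and 4.67 CPM ipsilaterally (4.77, SE 0.620), so its response ran from 2.96 in H95 to 7.46 in H61. Grp and Crh also rose, by 4.31 and 3.24, but reached only 1.16 ± 0.207 and 0.677 ± 0.251 CPM. Calca, the abundant precursor of the calcitonin gene-related peptide, went from 631 ± 40.9 to 571 ± 26.9 CPM (-0.14, adjusted p 0.0260), a call lost without H64, H95 or H100 and with the mice paired in only cKO libraries (adjusted p 0.0924), and Tac1, the substance P precursor, from 209 ± 31.7 to 191 ± 9.60 CPM (not called).

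Receptors of these peptides were called in both directions. Of 16 tested, 4 rose (25.0%, against 16.2% over all genes) and 7 fell (43.8%, against 15.1%), and 2 rose and 6 fell without H95 and H100. Beside Cckbr, the receptors that rose were Npy1r (1.09), Galr2 (0.47) and Npy2r (0.28); the calls of Galr2 and Npy2r were lost without H95 and H100. Those that fell included the opioid-type receptors Oprl1, Oprd1 and Oprk1 (-1.0, -0.85 and -0.73) and Galr1 (-0.64). Oprl1, the nociceptin receptor, had 24.9, 24.3, 24.0, 27.6 and 26.2 CPM contralaterally and 12.5, 12.3, 11.8, 13.8 and 13.2 CPM ipsilaterally (SE 0.0705, adjusted p 5.62e-10). Its level was halved in each mouse, with responses between -1.02 and -0.98.

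Ion channels changed by smaller steps. Of 27 potassium and HCN channel genes, 15 fell (55.6%; 9 genes in the fit of only cKO libraries) and 4 rose (14.8%; 2 genes without H64), with a median of -0.17. Over all genes 16.2% rose and 15.1% fell, and the higher share was near the first of these. Kcna2, a Shaker-type channel of myelinated axons, had 525, 441, 397, 563 and 439 CPM contralaterally and 354, 348, 334, 376 and 340 CPM ipsilaterally (-0.43, SE 0.0720, adjusted p 8.96e-05). The sides did not overlap, though the contralateral values were spread more widely. Kcnq3, a subunit of the M-current channel, rose by 0.34, a call lost without H64, while the pacemaker channel Hcn2 fell by 0.17. Of 13 sodium channel genes 3 fell, or 23.1% (Scn1a by 0.40, Scn2b by 0.20 and Scn4b by 0.18), a count of 5 with the mouse as a block and of 1 without H61, without H100, without H95 and H100, or in the fit of only cKO libraries. The nociceptor channels Scn9a, Scn10a and Scn11a were not called, at 391 ± 53.0, 875 ± 118 and 426 ± 70.2 CPM contralaterally against 368 ± 14.9, 893 ± 35.8 and 468 ± 34.0 CPM ipsilaterally. Of 14 sensory transduction channels 3 rose (21.4%) and 6 fell (42.9%; 2 and 3 genes without H95 and H100). Trpv2 rose from 77.0 ± 6.02 to 127 ± 2.45 CPM (0.73) while Trpm8, the cold receptor, was called narrowly (-0.33, adjusted p 0.0439) and not with the mouse as a block (adjusted p 0.0568), nor without H61, H64, H95 or H99. Trpv1, the capsaicin receptor, had 185 ± 43.2 and 187 ± 7.46 CPM.

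Of 15 growth factor genes of the neurotrophin and GDNF families 5 rose (33.3%, against 16.2% over all genes) and 3 fell, a share near the 15.1% over all genes (1 gene without H61). The list median was -0.00040. Bdnf, the brain-derived neurotrophic factor, had 50.1, 46.9, 44.4, 40.5 and 37.8 CPM contralaterally and 121, 111, 113, 96.5 and 99.9 CPM ipsilaterally (1.3, SE 0.0733, adjusted p 3.06e-11). Gfra1, the GDNF co-receptor, rose from 165 ± 11.2 to 387 ± 21.4 CPM (1.23) and its signalling partner Ret by 0.36. Neither Bdnf nor Gfra1 overlapped between the sides. Ntf3, the ligand of the receptor TrkC, had 0.999 ± 0.221 CPM contralaterally and 0.388 ± 0.0659 ipsilaterally, and fell by 1.36. Among 14 tested secreted FGFs and receptors, Fgf3 and Fgf21 (2.30) rose (14.3%) and 5 fell (35.7%), led by Fgf9 (-0.66) and Fgf5 (-0.65); the call of Fgf21 was lost without H64 or H100, and the gene was not tested in the fit of only cKO libraries.

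Of 19 cytokine signalling genes of the IL-6 family and JAK-STAT pathway 10 were called higher (52.6%, against 16.2% over all genes) and none lower (median 0.43). The other 9 were not called, and the lowest member was at -0.39. Without H61, 8 were higher and 1 lower, and with the mice paired in only cKO libraries 11 and 1. Il6 itself, the founding cytokine of the family, had 0.250, 0.0507, 0.111, 0.145 and 0.0497 CPM contralaterally and 2.60, 2.88, 2.17, 2.60 and 2.30 CPM ipsilaterally (4.34, SE 0.272, adjusted p 1.08e-10). The level stayed low but the sides were far apart. The feedback inhibitors of the pathway rose, Socs3 from 8.62 ± 1.88 to 31.1 ± 2.29 CPM (1.85) and Cish from 7.70 ± 0.860 to 20.04 ± 0.805 CPM (1.38). Lif, another cytokine of the family, had 0.650 ± 0.185 and 0.782 ± 0.158 CPM and was not called. Of 13 chemokine and myeloid signal genes tested, Csf1, Ccl7 (1.3) and Ccl2 (1.13) rose (23.1%, against 16.2% over all genes) and none fell; the call of Ccl2 was lost without H61, H95 or H99. Of 15 interferon-stimulated and MHC class I genes 2 rose (13.3%, below the 16.2% over all genes), Ifit1 (0.56) and Oasl2 (0.45). The call of Ifit1 was lost with the mouse as a block (0.58, adjusted p 0.0932), and 1 call was left without H64, H95 or H99 and 0 without H95 and H100.

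**Figure D3:**
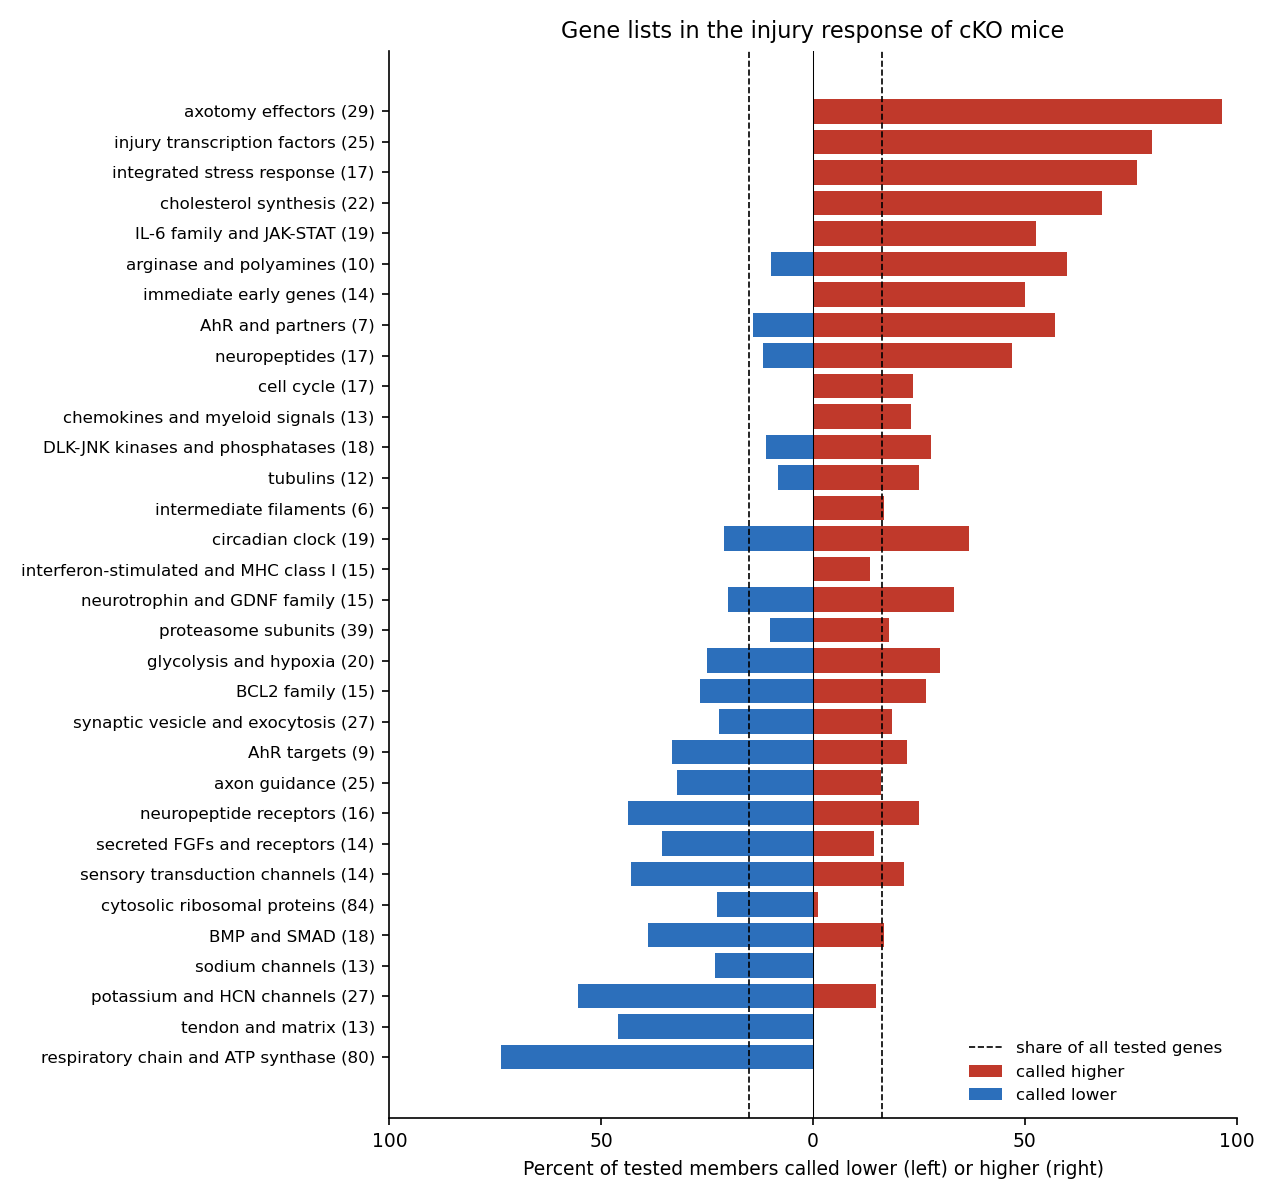
Percent of the tested members of each gene list called higher (red, to the right) or lower (blue, to the left) in cKO ganglia, with the number of tested members in brackets and the shares over all 28564 tested genes as dashed lines (16.2% higher and 15.1% lower). Axotomy effectors (28 of 29) and injury transcription factors (20 of 25) lead the higher side, and respiratory chain genes (59 of 80) the lower side.

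Of 17 genes of the integrated stress response, through which cells answer amino acid shortage and misfolded protein, 13 rose (76.5%) and none fell (median 0.49). The count higher was 13 without any 1 mouse. A count lower of 1 was found without H64 and with the mouse as a block, over all or only cKO libraries. Atf4, its central factor, had 143, 132, 130, 125 and 127 CPM contralaterally and 209, 205, 203, 191 and 186 CPM ipsilaterally (0.60, SE 0.0422, adjusted p 5.62e-10). Chac1, a glutathione-degrading target of Atf4, rose from 7.13 ± 0.444 to 22.9 ± 4.08 CPM (1.68) and Trib3, a feedback inhibitor, from 3.33 ± 0.0854 to 7.55 ± 1.27 CPM (1.18). For these 3 genes the sides were apart in all mice. Ddit3, which 2 gene identifiers share, rose by 0.89 under the identifier with the higher level; reads could be divided between the 2. Among 18 kinases and phosphatases of the DLK-JNK pathway, which carries the injury signal along the axon, 5 rose (27.8%) and 2 fell (11.1%; 0 fell in the fit of only cKO libraries). Dusp1, a phosphatase of stress kinases, rose by 1.01 and Dusp14 by 0.75, and Map3k12, the kinase DLK itself, was at -0.09. In the BCL2 family 4 of 15 rose and 4 fell, 26.7% each way against 16.2% higher and 15.1% lower over all genes, with a median of -0.06: the pro-apoptotic Pmaip1 (2.05) and Bbc3 (0.46) rose, while the pro-apoptotic Hrk (-0.84) and the anti-apoptotic Bcl2 (-0.40) fell. Cdkn1a, a cell cycle inhibitor, rose from 68.2 ± 4.21 to 183 ± 19.5 CPM (1.42), and 4 of 17 cell cycle genes rose in all (23.5%).

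Of 22 cholesterol pathway genes 15 rose (68.2%) and none fell (11 without H95 and H100), by small amounts (median 0.20). Hsd17b7, an enzyme of the late pathway, had 101, 87.4, 101, 105 and 95.1 CPM contralaterally and 170, 159, 169, 167 and 162 CPM ipsilaterally (0.76, SE 0.0479, adjusted p 1.03e-10), without overlap. Ebp, a sterol isomerase, rose by 0.47 and Mvd, an enzyme of the mevalonate steps, by 0.38. Slc2a1, the main glucose transporter of barriers and glia, rose from 58.4 ± 5.00 to 131 ± 17.4 CPM (1.17) and Slc2a3, the neuronal one, by 0.67. Both belong to the list of glycolysis and hypoxia genes, which was called in both directions. Of its 20 genes 6 rose (30%) and 5 fell (25%), against 16.2% and 15.1% over all genes, with a median of 1.84e-05. Among those that fell were Egln3, Car9 and Ankrd37 (-0.76, -0.68 and -0.48). The call of Car9 was lost without H61 or H95 and that of Ankrd37 without H95 and H100. Of 14 immediate early genes tested 7 rose (50%) and none fell. Arc, an activity-induced synaptic gene, rose from 3.76 ± 0.395 to 8.71 ± 0.629 CPM (1.21) and Fos by 0.77, while Egr1 had 11.8 ± 3.15 and 16.4 ± 5.09 CPM and was not called.

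Of 80 genes of the respiratory chain and ATP synthase 59 fell (73.8%, against 15.1% over all genes) and none rose, with a median of -0.14. The median response was -0.01 in H61, -0.31 in H64, -0.15 in H95, -0.04 in H99 and -0.13 in H100, so the size of the fall differed between mice. The count lower was 13 without H95 and H100, 24 without H64 and 30 without H95. It was 49 with the mouse as a block over all libraries, but 25 in the fit of only cKO libraries and 9 with the mouse as a block there. Cytosolic ribosomal protein genes had 19 of 84 lower (22.6%, against 15.1%) and 1 higher (median -0.10, and -0.04 without H64), a count lower of 7 with the mouse as a block, 3 without H64, 4 without H95, 10 without H100, 41 without H99, 3 in the fit of only cKO libraries (1 with the block there) and 1 without H95 and H100. Sequencing depth moved with side; with all libraries thinned to equal depth 61 respiratory chain genes (median -0.14) and 20 ribosomal protein genes (median -0.10) were lower. The mitochondrial share of counts, given above, also moved with side, and its part in these 2 results was not tested.

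**Figure D4:**
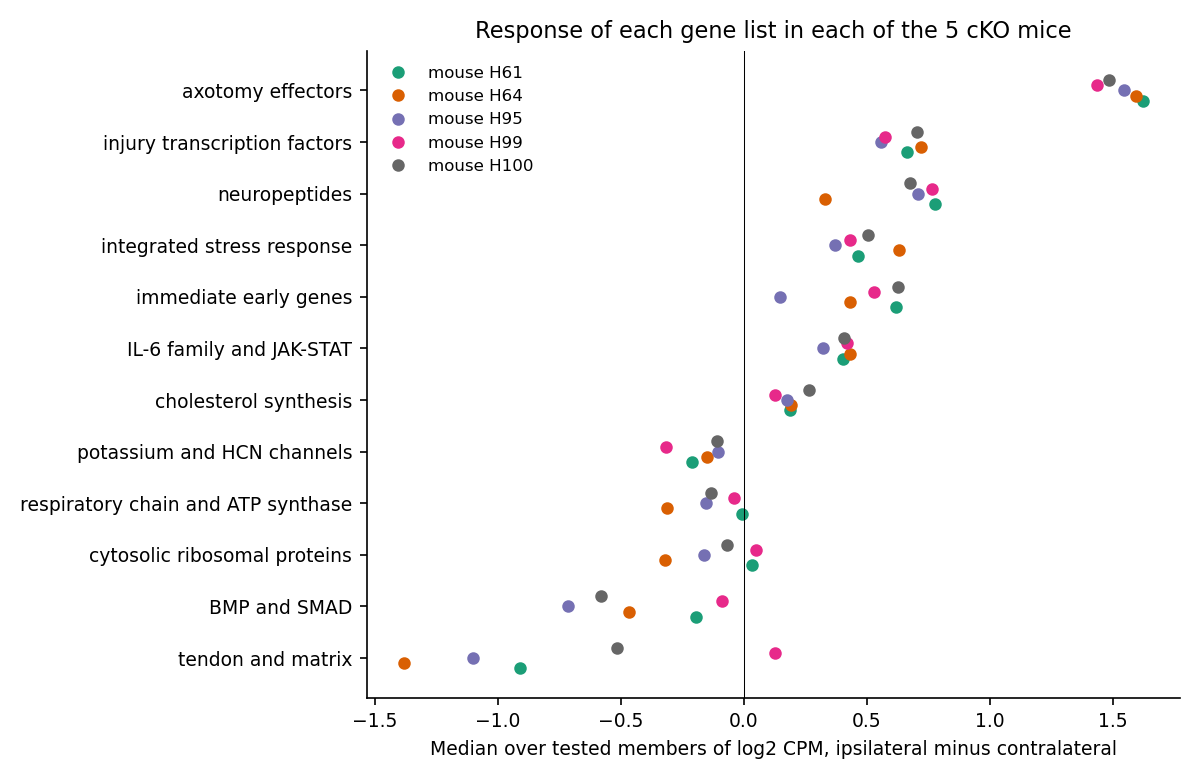
Median over the tested members of 12 gene lists of the response (log2 CPM, ipsilateral minus contralateral) in each of the 5 cKO mice, 1 colour per mouse. Axotomy effectors and injury transcription factors are above 0 in every mouse, ribosomal protein genes lie on both sides of 0, and the tendon and matrix list is below 0 in all mice but H99 (0.13).

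Guidance and transmission genes were called in both directions, several of their shares close to those over all genes (16.2% higher and 15.1% lower). Of 25 axon guidance genes 4 rose (16.0%) and 8 fell (32.0%; 2 and 5 genes without H95 and H100). Plxna4, a co-receptor for class 3 and class 6 semaphorins, had 128, 104, 113, 131 and 118 CPM contralaterally and 232, 315, 258, 242 and 224 CPM ipsilaterally (1.10, SE 0.0870, adjusted p 8.31e-09), with no overlap. The higher count was also 2 without H64. Sema3a, a repulsive ligand, fell by 1.55, a call lost without H95 and H100, and Dcc, a netrin receptor, by 0.95, from 3.41 ± 1.20 to 1.76 ± 0.454 CPM. Of 27 genes of synaptic vesicles and exocytosis 5 rose (18.5%) and 6 fell (22.2%; 2 genes in the fit of only cKO libraries); the higher count was 3 without H64 and 8 without H99, and the lower count 3 without H61 or H99. Syt4, a synaptotagmin of dense-core vesicles, rose from 368 ± 21.3 to 637 ± 31.5 CPM (0.79), while Syt7 fell by 0.24 and Snap25 by 0.15, the latter a call lost with the mice paired in only cKO libraries (adjusted p 0.0531). In the circadian clock list, read from mice sampled at the same hours, 7 of 19 rose (36.8%) and 4 fell (21.1%): the repressor Bhlhe41 rose from 42.5 ± 2.12 to 90.1 ± 4.60 CPM (1.08) and Per1 by 0.72, and Per3 and Nr1d2 fell by 0.37 and 0.32, the call of Per3 being lost without any 1 mouse. The lower count of the clock list was 2 without H64 or H95.

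The genes with the lowest fold changes held developmental signalling genes, receptors and matrix genes. Scx, a transcription factor of tendon cells, had 11, 12.7, 10.4, 9.44 and 13.1 CPM contralaterally and 5.83, 4.08, 4.82, 5.84 and 4.81 CPM ipsilaterally (-1.16, SE 0.10, adjusted p 1.40e-08). Nog, the BMP antagonist noggin, had 10.2, 12.3, 10.7, 9.96 and 8.95 CPM contralaterally and 4.19, 4.25, 4.66, 4.58 and 5.8 CPM ipsilaterally (-1.15, SE 0.104, adjusted p 2.70e-08). Vwc2l, a secreted von Willebrand factor C domain protein, fell from 20.3 ± 0.855 to 9.87 ± 0.974 CPM (-1.04, SE 0.0643). These 3 genes had no overlap between the sides and kept their call under every alternative. So did the receptors Chrnb3, a nicotinic subunit (-1.03), Chrm2, the muscarinic M2 receptor (-0.99), and Oprl1, and the genes Vstm2b (-1.11), Tnfaip8l3 (-1.07), Ankrd34c (-1.0) and Smad6 (-1.03). Of 18 BMP and SMAD genes 3 rose (16.7%, against 16.2% over all genes) and 7 fell (38.9%, against 15.1%; 4 fell without H95, with or without H100). Smad1, which carries the BMP signal and is known to promote axon growth, rose from 40.2 ± 3.01 to 76.6 ± 3.62 CPM (0.93), whereas its relative Smad9 fell from 81.3 ± 8.13 to 49.5 ± 3.49 CPM (-0.71).

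The matrix genes among the lowest lost their calls under some alternatives. For Chad, Ibsp and Col2a1 a few contralateral libraries were high. Chad, the cartilage protein chondroadherin, had 5.08, 22.7, 36.0, 2.65 and 10.1 CPM contralaterally and 2.12, 2.95, 1.91, 2.40 and 3.32 CPM ipsilaterally (-2.59, SE 0.565, adjusted p 0.00185). The sides overlapped, and without H95 and H100 the log2 fold change was -2.02 (adjusted p 0.0526). The fit of only cKO libraries with the mice paired also ended the call (-2.05, adjusted p 0.111). Ibsp, a bone sialoprotein, had 31.1 CPM in the contralateral library of H95 against 5.25 to 9.48 in the others, and 4.45 to 4.70 CPM ipsilaterally (-1.45, adjusted p 0.0281). Its call was lost with the mouse as a block (-1.14, adjusted p 0.122) and without H95 (-0.76, adjusted p 0.212). Without H95 and H100 it was at -0.92 (adjusted p 0.240). The call was also lost, with a fold change about as large, without H61 (-1.55), H64 (-1.57) or H99 (-1.53) and with no filter on low counts (-1.43). The call of Dpt, a dermal matrix protein (-1.22), was lost in 3 settings while its fold change stayed near that size. These were without H61 (-1.03, adjusted p 0.0726), without H64 (-0.98, adjusted p 0.0762) and with the mice paired in only cKO libraries (-1.08, adjusted p 0.0514). Fibin, a secreted protein (-1.10), was no longer called in the fits of only cKO libraries (-1.08, adjusted p 0.0684, and -0.90, adjusted p 0.105, with the mice paired) or without H95, and it was at -0.40 (adjusted p 0.287) without H95 and H100. Col2a1, the cartilage collagen, had 45.0 CPM in the contralateral library of H95 and 1.16 to 6.58 CPM in the others (-2.72, adjusted p 0.0440); without H95 it was at -0.84, without H95 and H100 at -1.29 (adjusted p 0.424), and with the mouse as a block at -1.40 (adjusted p 0.327). Cyp26b1, which degrades retinoic acid, had 66.0 CPM in the contralateral library of H100 and 34.2 in that of H95, against 6.67 to 11.7 in the others (-1.45, adjusted p 0.0492), and was at -0.20 without these mice and at -1.05 (adjusted p 0.0747) with the mouse as a block.

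Of 13 tested tendon and matrix genes 6 fell (46.2%, against 15.1% over all genes) and none rose (3 fell without H95 and H100, and 2 with the mice paired in only cKO libraries), and the median response was below 0 in 4 mice and 0.13 in H99. The summed level of 6 fibroblast markers was 935 to 2236 CPM contralaterally and 848 to 1558 CPM ipsilaterally, with 0 of 6 called by edgeR or by DESeq2 and 1 at an unadjusted p under 0.05. The 10 skeletal muscle markers summed to 8.12 to 2147 CPM contralaterally and 5.2 to 150 CPM ipsilaterally, 0 of 10 called by edgeR (1 at an unadjusted p under 0.05) and 6 called lower by DESeq2, with a median log2 fold change of -3.24 that became 0.30 without H95 and H100. None of these summed levels was 0 in any library. Their part in the lower matrix genes was not tested.

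**Figure D5:**
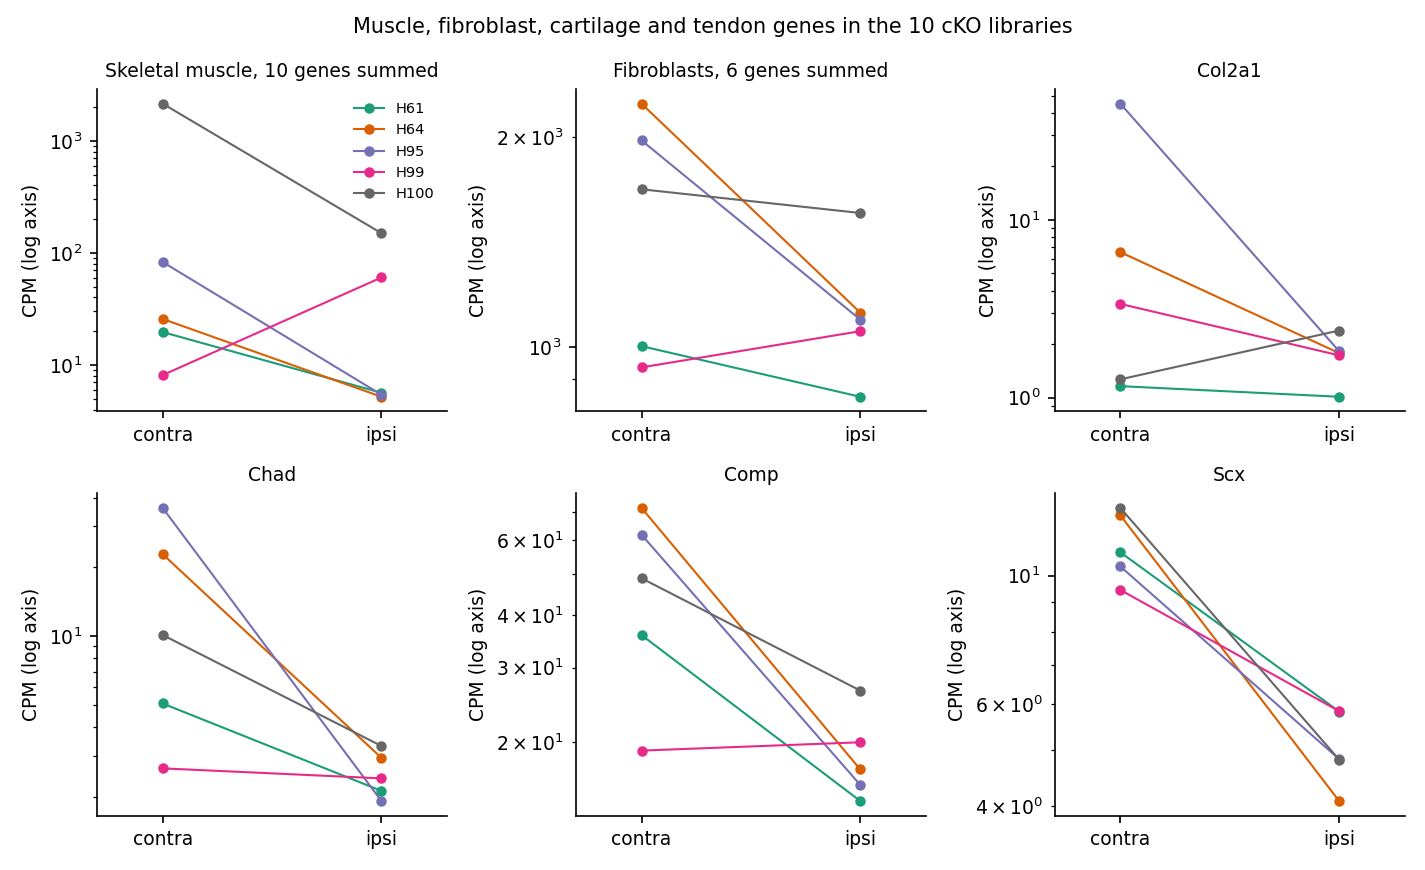
CPM on log axes in contralateral and ipsilateral ganglia, with a line per cKO mouse, for the summed skeletal muscle (10) and fibroblast (6) markers and for Col2a1, Chad, Comp and Scx. The contralateral libraries of H100 (muscle) and H95 (Col2a1) stand apart. Chad is highest contralaterally in H95, followed by H64, whereas Scx is lower ipsilaterally in all 5 mice.

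Markers of the neuron types in the ganglion moved in both directions, and few markers of glia or immune cells were called. In bulk tissue, fewer cells of a type and less RNA per cell cannot be told apart. The 12 sensory neuron markers, which include the transcripts that define the tissue, summed to 9592 to 11286 CPM contralaterally and 9494 to 10370 CPM ipsilaterally; 1 rose (8.33%) and 3 fell (25.0%), against 16.2% higher and 15.1% lower over all genes (2 and 1 without H99, 1 and 1 in the fit of only cKO libraries). Isl1, a factor of sensory neuron identity, fell from 86.5 ± 4.46 to 68.1 ± 2.56 CPM (-0.35). Of 8 markers of A-fibre mechanoreceptors and proprioceptors 4 fell (50%) and none rose, among them Whrn (-0.62) and Runx3 (-0.38). Of 4 pruriceptor markers 3 rose, or 75% (Nppb 0.65, Il31ra 0.64 and Osmr 0.43). The fourth, Sst, the somatostatin precursor, had 5.90 ± 1.62 CPM contralaterally and 4.45 ± 1.22 ipsilaterally (-0.41, adjusted p 0.0986); 1 marker was called lower with the mouse as a block and without H100. Their sum went from 80.7 to 111 CPM contralaterally to 126 to 154 CPM ipsilaterally, without overlap. Of 13 macrophage, 7 neutrophil and 10 lymphocyte markers none was called by edgeR or DESeq2, and 0 had an unadjusted p under 0.05; the macrophage sum was 133 to 362 CPM contralaterally and 191 to 309 CPM ipsilaterally. Of 6 satellite glia markers Glul (0.30) and Kcnj10 (0.25) rose (33.3%), a call lost for Kcnj10 without H61 or H100. Of 10 Schwann cell markers only S100b was called (-0.10, adjusted p 0.0466), and not with the mouse as a block (adjusted p 0.0534). With that block, over all or only cKO libraries, 1 Schwann cell marker was called higher and 0 lower.

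The injury response was then compared with that of the control mice by the interaction of genotype and injury. The edgeR test called 0 of 28564 genes (0%), with a smallest adjusted p of 0.485, while 2799 genes (9.8%) had an unadjusted p under 0.05. DESeq2 called 11 genes, and the edgeR test called 43 without H99. Without H64, H95, or both H95 and H100, the genes under the unadjusted threshold were 1783, 1597 and 1224. They were 4706 without H99 and 4675 without a filter on low counts. The lowest p was that of Vgf, whose log2 fold change was 1.94 in cKO and 1.53 in control mice (difference 0.41, SE 0.0783, p 4.36e-05, adjusted p 0.485). Next were Nup93, a nuclear pore protein (0.56 and 0.35, p 8.37e-05), and Htr1a, a serotonin receptor (0.34 and -0.04, p 0.000140), with the same adjusted p. Among the injury genes, the difference of the responses was 0.27 for Atf3 (SE 0.120), 0.03 for Sprr1a (SE 0.449), 0.23 for Sox11 (SE 0.0956), 0.15 for Ahr (SE 0.0930) and -0.18 for Gal (SE 0.259), none of them called. A p that misses the threshold does not show that the genotypes respond alike.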

How the data were processed

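The 20 libraries are stranded mRNA libraries read as pairs of 150 bases. The deposited counts are whole numbers per gene over exons, not normalized; the submitters' processing notes name HISAT2 and Picard and the builds mm10 and mm39, and the counting program and strand setting are not given in the sources used here. A second deposited table of FPKM values, made by the authors, was not used. Of 78258 identifiers 56837 had counts, and filterByExpr (minimum count 10, total 15) left 28564, of which 23401 had a symbol in GENCODE M21.

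Counts were fitted in R 4.3.3 with edgeR 4.0.16 (TMM, robust quasi-likelihood F-test), with 4 group means over all 20 libraries; Benjamini-Hochberg adjustment ran over all tested genes, and genes were called under 0.05. The script was tested on simulated data. Levels are CPM as mean ± SD, and responses per mouse are log2 CPM (prior count 2), ipsilateral minus contralateral. Libraries are paired by animal. Across genes, their deviations from the means of their groups correlated at 0.0663 in H61, 0.195 in H64, -0.0157 in H95, 0.189 in H99 and 0.361 in H100. The highest correlation of each ipsilateral library with the contralateral library of another mouse was 0.168, 0.0607, 0.203, 0.111 and 0.114 in the same order. It exceeded the correlation within the mouse in H61 and H95. Replicate libraries of a cKO group, each from another mouse, differed beyond counting error (chi-square over degrees of freedom 6.76 to 58.6). This ratio covers counting error only. Whether the excess came from the mice, the dissection or the library preparation was not tested.

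Beside Ahr, named genes are the 14 highest and 14 lowest fold changes with at least 5 CPM and 1 sign in all 5 mice, the 6 called genes with the widest responses, the 6 lowest interaction p, Thy1 and Cadps, and up to 6 members per list and direction; some of them are not reported here. The comparison, lists and named genes were chosen with earlier results of these data known. Alternatives were RLE size factors, DESeq2 1.42.0, a mean CPM of at least 1, no filter, only cKO libraries, a replicate block, counts thinned to equal depth and each cKO mouse left out; leaving out H95 and H100 together was added after seeing the data. Promoters came from RefSeq (GRCm38.p6).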

Additional observations from a re-analysis of the deposited data

Results flagged for a closer look

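Of 151 groups of 5 values checked (levels of 39 named genes by side, their responses, and summed marker levels), 10 had 1 library far from the others, with a gap to its nearest neighbour above 0.71 of the group's range. Chance gives about 7.55 such groups. Contralaterally, H95 was the high library for Col2a1 (45.0 CPM against at most 6.58, gap 0.877), Ibsp (31.1 CPM against at most 9.48, gap 0.836) and Npy (0.755 CPM against at most 0.205, gap 0.775). H100 was the high contralateral library for the summed skeletal muscle markers (2147 CPM against at most 82.9, gap 0.965).

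Ipsilaterally, H64 was high for Ecel1 (18.9 CPM against at most 9.03, gap 0.869) and Sema6a (216 CPM against at most 167, gap 0.713) and low for the summed C-LTMR markers (low-threshold mechanoreceptors of C fibres; 195 CPM against 224 to 230, gap 0.834). H64 also had the largest response of Ahr (0.81 against at most 0.62, gap 0.761). H99 was high ipsilaterally for Chrm2 (14 CPM against at most 11.5, gap 0.772) and Vstm2b (7.77 CPM against at most 5.24, gap 0.729).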

How the results depend on the processing

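Of 383 listed or named genes (372 with a mean CPM of at least 1 and 381 in the fits of only cKO libraries), none called in the main test changed sign under the alternatives that tested it. The count of called genes was 8881 with RLE size factors, 9223 with DESeq2 and 9015 with the replicate block, and 7151 to 9077 without any 1 mouse. Genes called lower were 2816 in the fit of only cKO libraries, 2803 with the replicate block in that fit and 2599 without H95 and H100, of which the last was added after seeing the data. Called genes that fell at least 2-fold were 93 in both fits of only cKO libraries. With a mean CPM of at least 1, 309 called genes rose and 54 fell at least 2-fold. The interaction gave 11 calls with DESeq2 and 0 to 43 without any 1 mouse; its genes at an unadjusted p under 0.05 were 4675 without a filter, 1224 without H95 and H100 and 1597 to 4706 without any 1 mouse. The cause of these shifts was not tested.

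With a mean CPM of at least 1, the list medians were 1.69 for axotomy effectors, 0.0048 for neuropeptides, -0.32 for neuropeptide receptors and 0.19 for AhR targets. For neuropeptides the median was 0.42 in the fit of only cKO libraries and 0.43 with the replicate block there. For AhR targets it was -0.17 with the replicate block, 0.12 without H95 and H100 and -0.14 to 0.12 without any 1 mouse, so this median has no stable sign. For skeletal muscle it was 0.30 without H95 and H100. Without any 1 mouse it was 0.37 to 0.46 for IL-6 and JAK-STAT genes and -0.16 to -0.079 for FGFs. Named calls lost with the replicate block, over all or only cKO libraries, are given with the result, apart from Map3k12 and Comp, lost in only cKO libraries. Of the 8939 called genes, 8313 were also called with the block over all libraries and 6697 with the block in only cKO libraries.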

Other observations

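Of 5163 tested identifiers without a match in GENCODE M21, 618 were called higher (11.97%, against 16.2% over all genes) and 417 lower (8.08%, against 15.1%). Of 1224 tested lincRNA genes 102 were called higher (8.33%, against 16.2%) and 175 lower (14.3%, against 15.1%). Among the 1224, 48 called genes rose and 14 fell at least 2-fold. Over all 28564 tested genes 724 (2.53%) rose and 163 (0.571%) fell so far.

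The contralateral libraries of the cKO mice varied more than the other groups. Over the 13389 genes whose mean reached 5 CPM in each group, the median SD of log2 CPM (pseudocount 0.1) between mice was 0.0926 in cKO contralateral ganglia, against 0.0624 in cKO ipsilateral, 0.0634 in control contralateral and 0.0607 in control ipsilateral ganglia. The contralateral SD was the larger one for 74.4% of these genes in cKO mice and for 53.3% in control mice. Ret is an example, chosen after its values were seen: its 5 contralateral values had an SD of 99 CPM around 799 CPM, and its ipsilateral values an SD of 19.2 CPM. No test was made of this difference, and its origin was not tested.

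Thy1, whose promoter drives the Cre, was not called with injury in cKO ganglia (-0.06, adjusted p 0.420), nor was Cadps (0.10, adjusted p 0.156). Without H99 Cadps was called (0.16, adjusted p 0.00922). The other genes with a low interaction p, none called, were Slc4a11 (0.09 in cKO and -0.26 in control mice), Syt9 (0.08 and -0.12) and Mmp25 (0.30 and -0.02).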
